A study of Homo sapiens with 12 samples.

Results

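Lysosome and autophagy genes are described here across modified cells of MCF10A, an immortal line of human breast epithelium that does not form tumours. The set holds 38 genes in 4 roles, which are the hydrolases and other proteins of the lysosome lumen (16 genes), the lysosome membrane (7), the proton pump (8) and autophagy (7). The members were chosen by gene symbol, and for each gene the brightest probe with a detection p-value under 0.05 on at least 3 arrays was taken. This gave 37 of the 38 genes, among 11205 named genes and 16171 items (named genes and unnamed probes) in all. CD63, a tetraspanin of late endosomes, had no probe in the platform table and was not measured.

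Total RNA from 12 cell samples was hybridized to 1 Illumina bead array each, with 3 arrays in each of 4 groups. The genotypes in the labels are Cas/ErbB2, ErbB2, Cas and Ctr MCF10A.B2, which is called control here and which the labels also describe as modified MCF10A cells. ErbB2 is a receptor tyrosine kinase and p130Cas, named in the series title, is a focal adhesion adaptor. How the proteins were raised or activated, what the control cells carry, whether a group is a clone or a pool, and whether replicates were separate cultures is not given, so that p-values reflect only how far these 12 samples vary, and that variation may be technical.

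Lysosomes are acidic compartments in which proteins, lipids and sugars delivered by endocytosis or autophagy are broken down by hydrolases that work at low pH. A proton-pumping ATPase acidifies the lumen, and highly glycosylated membrane proteins line the lysosome wall and carry channels and transporters. In autophagy, cargo is enclosed in a membrane marked by lipid-linked LC3 and GABARAP proteins and is carried to the lysosome. Many of these genes are known targets of the transcription factor TFEB and its relatives TFE3 and MITF, which bind the CLEAR element, whose core is the palindrome CACGTG.

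The promoter windows that hold this core are shown so that the members that moved can be read beside a sequence feature. Since many members are known targets of factors that bind this core, its share among them is not independent of the gene list. RefSeq windows of 300 bases (GRCh38.p14, 250 bases before to 50 after an annotated start) were found for 29 of the 38 genes. CACGTG, which reads the same on both strands and was the only motif searched, lay in a window of 8 of these 29 genes (27.6%), against 8.77% of 27305 genes with a window. A match is a description of these letters and not a shown binding site. Whether a match went with a difference between groups was not tested. The stretches below run 5′ to 3′ on the strand of the gene, with each CACGTG in capitals. LAMP1 at chr13:113297027-113297243 (plus strand) held 6 copies, and no other window of 35116 held as many. CTSA at chr20:45891273-45891334 (plus strand), MCOLN1 at chr19:7522563-7522623 (plus strand) and ATP6V0B at chr1:43974883-43974946 (plus strand) held 2 copies each. NEU1 at chr6:31862922-31862967 (minus strand), CTSD at chr11:1763949-1763994 (minus strand) and ATP6V0D1 at chr16:67481191-67481236 (minus strand) held 1 copy each, as did a window of CD63.
LAMP1: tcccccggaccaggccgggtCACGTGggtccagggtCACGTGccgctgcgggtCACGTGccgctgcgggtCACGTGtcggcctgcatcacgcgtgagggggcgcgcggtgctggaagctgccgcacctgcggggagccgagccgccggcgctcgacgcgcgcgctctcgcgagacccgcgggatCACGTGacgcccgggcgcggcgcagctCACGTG
CTSA: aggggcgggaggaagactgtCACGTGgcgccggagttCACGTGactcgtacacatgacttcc
MCOLN1: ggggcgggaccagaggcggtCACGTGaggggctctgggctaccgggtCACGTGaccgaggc
ATP6V0B: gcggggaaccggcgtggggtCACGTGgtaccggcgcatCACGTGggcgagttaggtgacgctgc
NEU1: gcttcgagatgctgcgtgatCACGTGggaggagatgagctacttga
CTSD: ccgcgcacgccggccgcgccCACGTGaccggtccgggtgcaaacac
ATP6V0D1: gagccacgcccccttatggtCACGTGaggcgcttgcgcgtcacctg

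Signal and detection differed between the control arrays and the other 9. Median raw signal over all probes was 547.1 to 622.8 on Cas/ErbB2 arrays, 477.5 to 576.8 on ErbB2 arrays and 510.2 to 614.5 on Cas arrays, against 170.9 to 202.4 on control arrays. Probes detected numbered 12864 to 15984 on Cas/ErbB2 arrays, 14099 to 15084 on ErbB2 arrays and 13897 to 15214 on Cas arrays, against 19076 to 19416 on control arrays. The array names give a hybridization number to the control arrays alone (III for replicates 1 and 2, II for replicate 3), so group and hybridization cannot be told apart in a comparison against control. Cas/ErbB2 replicate 3 stood apart from the other arrays of its group for several dim members, given with their values below. The basal epithelial markers with a probe (5 of 9 listed, among them KRT5 and KRT14) were detected on all 12 arrays. They summed to 90600 to 118582 on Cas/ErbB2, 82113 to 98053 on ErbB2 and 71939 to 82418 on Cas arrays, against 86799 to 98641 on control arrays. In Cas/ErbB2 against control group means LAMB3 (14.978 against 13.105) and ITGB4 were higher, and KRT5 (14.66 against 15.24), KRT14 and CDH3 lower. Marker lists of other cell types also differed in summed signal between groups. The 7 epithelial markers summed to 15806 to 22102 on Cas/ErbB2, 20977 to 22642 on ErbB2 and 23760 to 27139 on Cas arrays, against 25303 to 29488 on control arrays. The fibroblast markers (4 of 8 measured, with COL3A1, PDGFRA, PDGFRB and THY1 at background) summed to 975 to 1250, 1213 to 1809 and 1841 to 2150 on the same arrays, against 2826 to 3583 on control arrays. The endothelial markers (PECAM1 and TEK, with CDH5, VWF and KDR at background) summed to 3490 to 4043, 898 to 971 and 520 to 562, against 362 to 376 on control arrays. Single markers did not all follow these sums. In Cas/ErbB2 against control group means CDH1, KRT8, CLDN1 and DSP were lower (DSP 13.15 against 14.19), and EPCAM, KRT18 and KRT7 higher (KRT7 12.17 against 11.12). DCN (8.37 against 11.32) and COL1A1 were lower, LUM (7.91 against 6.61) was higher and COL1A2 was close. TEK was 11.77 against 7.34, and PECAM1 8.24 against 7.68. The part of the markers in the results was not tested.

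Of the 37 genes 29 were detected on all 12 arrays. The other 8 were CTSA (10 arrays), NEU1 (9), MCOLN1 (7), CTSZ, ATP6V1C1 and WIPI1 (4 each), and HEXA and TFEB (3 each, the control arrays alone). CTSZ, ATP6V1C1 and WIPI1 met the filter only with the control arrays counted. A gene that passed it only through the control arrays had to be lower elsewhere. Counts are therefore given for all 37 and for the 29. Values below are log2 normalized signal, and differences are between group means on that scale, ± the standard error from limma (3 arrays in each group), with p-values adjusted over all 16171 items by the Benjamini-Hochberg method and called at 0.05. In RNA from whole cultures, a lower share of cells that express a gene and less RNA per cell cannot be told apart.

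In Cas/ErbB2 cells against Cas cells, a comparison that holds no control array, members moved in both directions. The membrane proteins CD68 and NPC1 and the protease cathepsin B (CTSB) were higher, by 1.34, 1.01 and 0.50 on the log2 scale, while the hydrolases CTSA, CTSH, CTSD and TPP1 were lower, with differences of -0.57 to -1.31, and the channel MCOLN1 was at least 1.32-fold lower. These were 8 of 37 members called, 3 higher and 5 lower, against 10.6% of all items tested (4.95% higher and 5.70% lower). Over the 29 members detected on all arrays it was 6 (3 higher and 3 lower), against 14.2% of the items so detected (7.16% higher and 7.03% lower). It was 7 without Cas/ErbB2 replicate 3, when 15.8% of all items were called. The median difference over the 37 was -0.13, against -0.02 over all items. By role, 5 of 16 lumen genes and 3 of 6 measured membrane genes were called, and 0 of 8 proton pump genes and 0 of 7 autophagy genes. The calls of CD68, CTSA and CTSH held under each alternative tried. Those of CTSD, NPC1 and MCOLN1 were lost under median scaling over all probes alone, that of CTSB also without Cas replicate 1 or 3, without Cas/ErbB2 replicate 1 or 2 and in 3 other settings, and that of TPP1 in 6 settings.

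**Figure D1:**
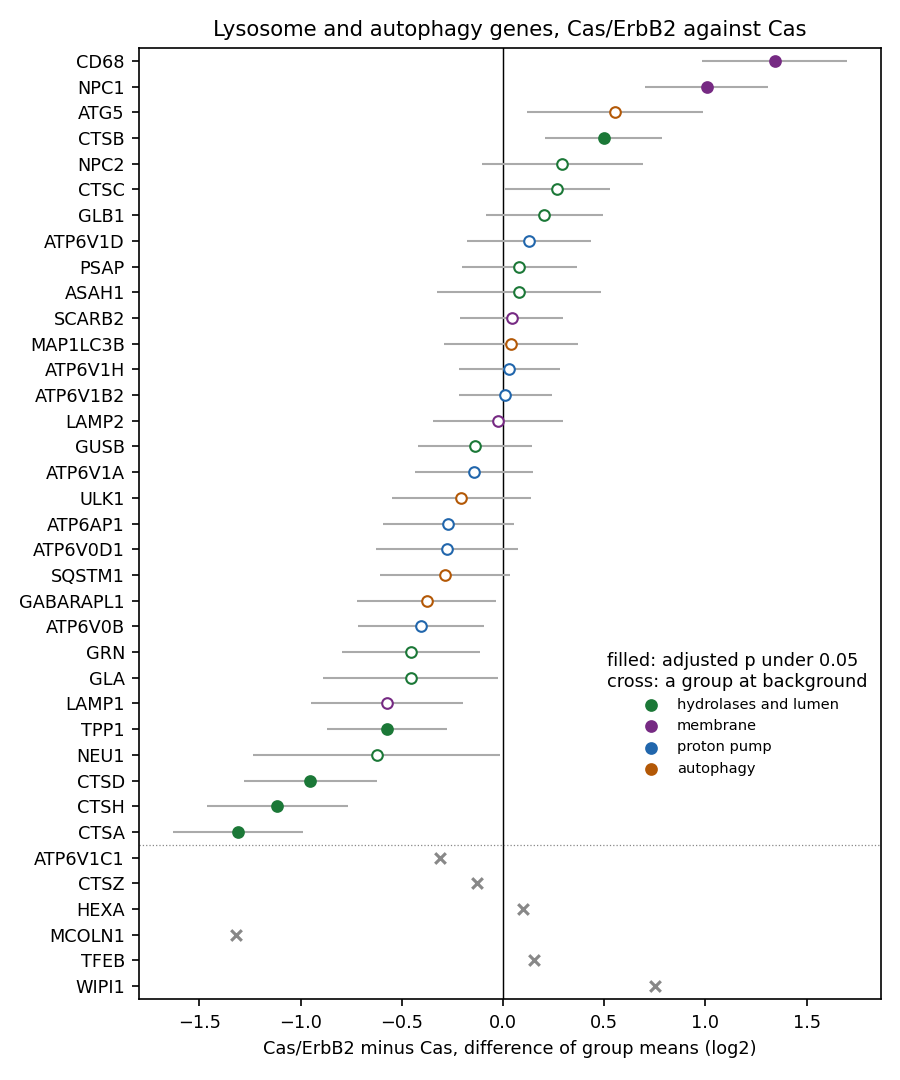
Difference between Cas/ErbB2 and Cas group means (log2, horizontal axis) for the 37 measured genes, with 95% confidence intervals of the limma fit as bars, colours for the 4 roles and filled points for adjusted p under 0.05. Grey crosses below the dotted line, with no interval, stand for 6 genes at background on every array of a group, for which the position is not a measured fold. CD68 at 1.34 and NPC1 at 1.01 lie at the upper end, CTSH at -1.11 and CTSA at -1.31 at the lower end of the others.

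Of the genes that were higher, CD68 encodes a heavily glycosylated lysosome membrane protein best known as a marker of macrophages. CD68 measured 12.94, 12.58 and 12.47 in Cas/ErbB2, 11.96, 11.90 and 11.76 in ErbB2, 11.53, 11.33 and 11.11 in Cas and 11.59, 11.57 and 11.22 in control cells. The 3 Cas/ErbB2 arrays lay above the other 9, and the ErbB2 arrays above the Cas and control arrays. The difference was 1.34 ± 0.16 against Cas (adjusted p = 2.25e-04), 0.79 ± 0.16 against ErbB2 (0.0265) and 1.20 ± 0.16 against control (1.13e-04). Both of its other probes were also higher in Cas/ErbB2 than in control, by 0.73 and 0.71 (adjusted p = 0.0154 and 0.0467 in a fit of single probes). Against Cas they gave 0.94 (0.015) and 0.60 (0.202, not passed), and against ErbB2 0.47 and 0.12, neither of which passed (0.307 and 0.88). Of 12 macrophage markers set beside it, 3 were measured (CSF1R, CD14 and AIF1), 8 including PTPRC and ITGAM were at background on every array, and C1QA was detected on 1 control array. The summed signal of the 3 was 2269 to 3029 on Cas/ErbB2 arrays, 1865 to 2109 on ErbB2 arrays and 1891 to 2249 on Cas arrays, against 1342 to 1659 on control arrays. Single markers went both ways between Cas/ErbB2 and Cas group means. CSF1R was higher (10.56 against 9.44), and CD14 (9.76 against 10.18) and AIF1 (7.59 against 7.70) were lower. The part of these markers in the CD68 difference was not tested.

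NPC1, which exports cholesterol from the lysosome, followed a related order. On the arrays of Cas/ErbB2 cells NPC1 was 10.42, 10.65 and 10.59, against 9.96, 9.93 and 10.11 in ErbB2, 9.44, 9.57 and 9.63 in Cas and 9.94, 10.16 and 10.39 in control cells. Cas/ErbB2 arrays were above all others, Cas arrays were below all others, and ErbB2 and control arrays overlapped. Against Cas the difference was 1.01 ± 0.14 (adjusted p = 5.11e-04), against control 0.39 ± 0.14 (0.039), and against ErbB2 it was 0.55 ± 0.14 and missed the threshold (0.0584). In Cas cells it was below control (-0.62 ± 0.14, adjusted p = 0.00596). CTSB is an abundant lysosomal cysteine protease. Signal of CTSB was 12.82, 12.80 and 12.63 in Cas/ErbB2, 12.27, 12.22 and 12.09 in ErbB2, 12.29, 12.41 and 12.06 in Cas and 12.25, 12.50 and 12.31 in control cells. The Cas/ErbB2 arrays were above the other 9, which overlapped each other. Its differences were smaller, at 0.50 ± 0.13 against Cas (adjusted p = 0.0312), 0.56 ± 0.13 against ErbB2 (0.0463) and 0.40 ± 0.13 against control (0.0272). The call against control was lost for CTSB without Cas/ErbB2 replicate 1 or 2 or control replicate 1 or 3 and in 1 other setting (adjusted p up to 0.1) and for NPC1 without Cas/ErbB2 replicate 2 or 3, Cas replicate 2 or control replicate 1 or 2 and in 2 other settings (adjusted p up to 0.167). Another CTSB probe gave 0.29, 0.39 and 0.27 in the same comparisons and passed in none. Under median scaling over all probes, an alternative added after the data were seen under which the median of all items in Cas/ErbB2 against control was -1.62, CD68, CTSB and NPC1 turned to -0.61, -1.36 and -1.52 against control, which is 1.01, 0.25 and 0.10 above that median.

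**Figure D2:**
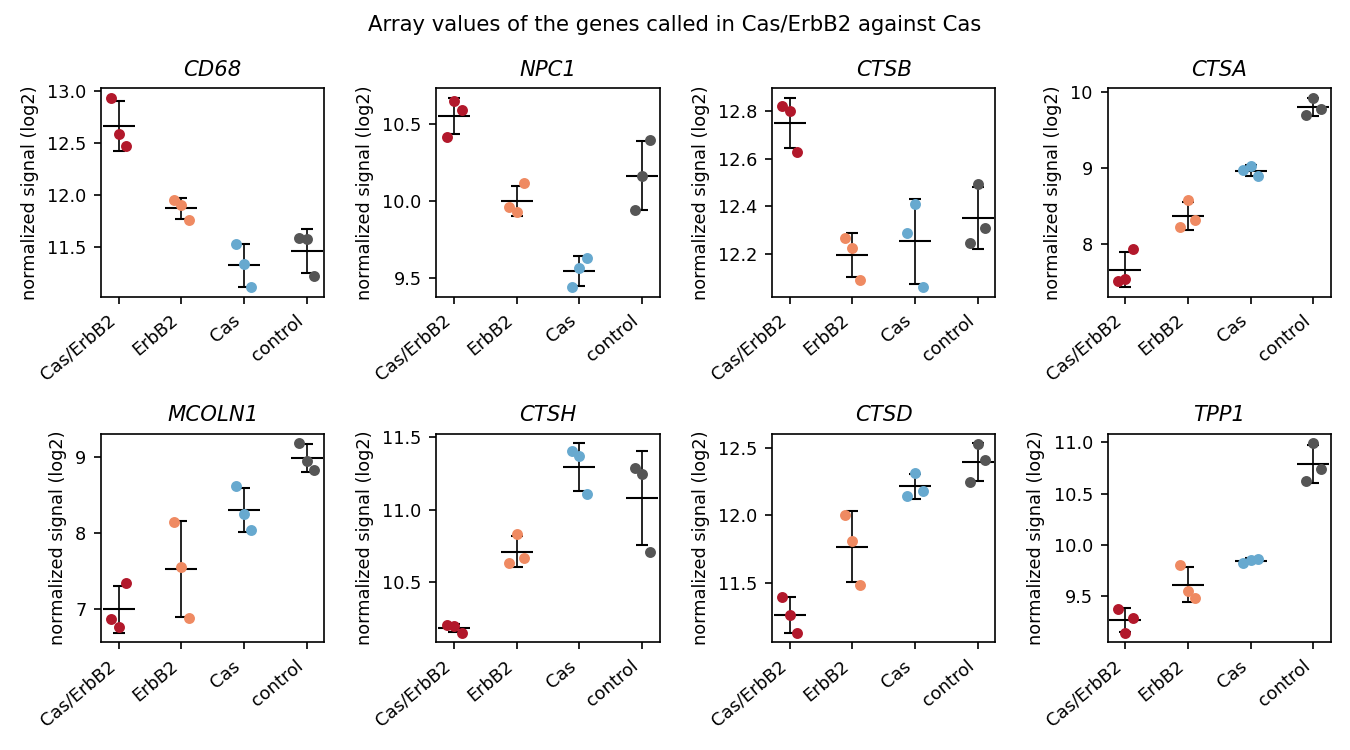
Log2 normalized signal (vertical axes, each with its own range and not starting at 0) of the 8 genes called in Cas/ErbB2 against Cas, with 1 point per array, the group mean as a long line and the SD as bars (n = 3). The MCOLN1 points of Cas/ErbB2 cells are not well above background, and CTSA was detected on only 1 of the 3 Cas/ErbB2 arrays. CD68 lay between 12.47 and 12.94 in Cas/ErbB2 cells and between 11.11 and 11.53 in Cas cells, while CTSA lay between 7.51 and 7.92 in Cas/ErbB2 cells and between 8.89 and 9.03 in Cas cells.

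Among the genes that were lower, CTSA encodes a carboxypeptidase that also holds the sialidase NEU1 and the galactosidase GLB1 in a protective complex. CTSA stood at 7.51, 7.53 and 7.92 in Cas/ErbB2, 8.22, 8.57 and 8.31 in ErbB2, 8.98, 9.03 and 8.89 in Cas and 9.70, 9.93 and 9.78 in control cells. The 4 groups did not overlap, with Cas/ErbB2 lowest and control highest. CTSA was detected on 1 of 3 Cas/ErbB2 arrays and on all others. Its difference was -1.31 ± 0.15 against Cas (adjusted p = 1.12e-04), -0.71 ± 0.15 against ErbB2 (0.0259) and -2.15 ± 0.15 against control (8.23e-07). On Cas/ErbB2 replicates 1 and 2 CTSA lay below the lowest detected signal (8.055 and 7.981). The sizes of these differences are therefore not well measured folds. The CTSA promoter stretch is among those with 2 copies of CACGTG shown above. Of the other genes called in Cas/ErbB2 against Cas, MCOLN1 and CTSD also held CACGTG. CTSH, TPP1, CD68 and NPC1 were called too and had windows without it. ATP6V0B and ATP6V0D1 held it and were called in no comparison by their brightest probes.

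MCOLN1, the TRPML1 calcium channel of the lysosome, was not well above background on any Cas/ErbB2 array. Values of MCOLN1 were 6.86, 6.76 and 7.34 in Cas/ErbB2 cells, 8.14, 7.55 and 6.87 in ErbB2 cells, 8.62, 8.26 and 8.04 in Cas cells and 9.19, 8.96 and 8.83 in control cells. It was detected on 1 of 3 ErbB2 arrays and on all Cas and control arrays. The Cas/ErbB2 and ErbB2 arrays overlapped, and both Cas and control arrays lay above the Cas/ErbB2 arrays. It was therefore at least 1.32-fold lower in Cas/ErbB2 than in Cas cells (adjusted p = 0.00912) and at least 2.12-fold lower than in control (1.31e-04). These bounds set the mean of the brighter group against the lowest signal among detected probes on the dimmer arrays.

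CTSH, a cysteine protease that mainly acts as an aminopeptidase, was lowest in Cas/ErbB2 cells. CTSH measured 10.20, 10.19 and 10.15 in Cas/ErbB2, 10.63, 10.83 and 10.67 in ErbB2, 11.41, 11.37 and 11.11 in Cas and 11.29, 11.25 and 10.71 in control cells. Cas/ErbB2 arrays were below all others, and ErbB2 arrays were below Cas arrays but overlapped the control range through control replicate 3. The difference was -1.11 ± 0.16 against Cas (adjusted p = 7.03e-04) and -0.90 ± 0.16 against control (8.25e-04), and -0.53 ± 0.16 against ErbB2 did not pass (0.109). Another CTSH probe was detected on the control arrays alone.

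CTSD, the main lysosomal aspartic protease, was lowest in the same cells. On the arrays of Cas/ErbB2 cells CTSD was 11.40, 11.26 and 11.13, against 12.01, 11.81 and 11.48 in ErbB2, 12.14, 12.32 and 12.18 in Cas and 12.25, 12.53 and 12.41 in control cells. Cas/ErbB2 arrays were lowest and did not overlap any other array, and Cas and control arrays overlapped. Cas/ErbB2 was lower than Cas (-0.95 ± 0.15, adjusted p = 0.00137) and control (-1.13 ± 0.15, 9.00e-05), ErbB2 was lower than control (-0.63 ± 0.15, 0.00805), and Cas/ErbB2 against ErbB2 did not pass (-0.50 ± 0.15, 0.103). In ErbB2 cells the CTSD call was lost without control replicate 2 (adjusted p up to 0.0525). TPP1 removes tripeptides from the ends of proteins. Signal of TPP1 was 9.38, 9.15 and 9.29 in Cas/ErbB2, 9.80, 9.55 and 9.48 in ErbB2, 9.82, 9.85 and 9.87 in Cas and 10.63, 10.99 and 10.74 in control cells. The 4 groups did not overlap, with Cas/ErbB2 lowest and control highest. TPP1 was -0.57 ± 0.14 against Cas (adjusted p = 0.0176), a call that was lost without Cas/ErbB2 replicate 2 or without any of the 3 Cas arrays, and its differences from control were -1.51 ± 0.14 in Cas/ErbB2, -1.17 ± 0.14 in ErbB2 and -0.94 ± 0.14 in Cas cells (4.55e-06, 4.79e-05 and 3.05e-04).

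Against ErbB2 cells, Cas/ErbB2 cells differed in 3 members, CD68 and CTSB (higher) and CTSA (lower), against 2.75% of all items (1.21% higher and 1.55% lower). Over the 29 members detected on all arrays it was 2, both higher, against 3.21% of the items so detected (1.64% higher and 1.57% lower), and 4 without Cas/ErbB2 replicate 3. The median over the 37 was 0.01, against -0.02 over all items, and 0 of 8 proton pump and 0 of 7 autophagy genes passed. The calls of CTSB, CTSA and CD68 were lost in 16 of 24, 12 of 23 and 9 of 24 settings. The count was 8 without Cas/ErbB2 replicate 3, 1 without ErbB2 replicate 1, and 0 without ErbB2 replicate 2 or 3 or Cas/ErbB2 replicate 1 or 2. The share of all items called was 11%, 1.18% and 1.11% to 1.53% in these cases, beside 2.75% with all arrays. In ErbB2 against Cas cells limma called 0 of 37 members, against 1.56% of all items (1.09% higher and 0.464% lower), with 8 at an unadjusted p under 0.05, and with trend and robust moderation it called 2 (CD68 higher and CTSH lower). Over the 29 detected on all arrays it was also 0, against 1.72% of such items (1.27% higher and 0.452% lower). The difference nearest the threshold was that of CTSA (-0.60 ± 0.15, adjusted p = 0.0779). The confidence intervals of these differences reached 0.23 to 0.81 on each side (median 0.32), so that smaller differences between the ErbB2 and Cas groups were not resolved.

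Against control, the members that passed were lower in ErbB2 and Cas cells and, with 4 exceptions, in Cas/ErbB2 cells. In Cas/ErbB2 cells 21 members were lower and 4 higher (background 45.5% of all items, 24.5% lower and 21.0% higher). In ErbB2 cells 22 were lower and 0 higher (background 30.6%, 16.8% lower and 13.8% higher). In Cas cells 13 were lower and 0 higher (background 29.3%, 16.0% lower and 13.3% higher). Over the 29 members detected on all arrays the lower calls were 14 in Cas/ErbB2, 14 in ErbB2 and 6 in Cas cells, against 19.0%, 10.9% and 7.36% of the 8406 items so detected, and the higher calls were 4, 0 and 0, against 21.7%, 15.3% and 12.4% (either way 40.6%, 26.2% and 19.7%). Without Cas/ErbB2 replicate 3, 17, 15 and 8 of the 29 were called, when 51.3%, 37.8% and 35.7% of all items were called. The 3 comparisons share the control arrays, so their sharing of members was not read as a result.

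The counts for ErbB2 and Cas cells moved when control arrays were left out, and so did the share of all items called. The median difference over the 29 was -0.32 in Cas/ErbB2, -0.37 in ErbB2 and -0.18 in Cas cells, against 0.02 over the items detected on all arrays in each comparison. For ErbB2 the count of 22 was 12 without control replicate 1, 6 without control replicate 2 and 14 without ErbB2 replicate 2. Of all items 17.4%, 14% and 23.5% were then called, beside 30.6% with all arrays. For Cas the count of 13 was 8, 8 and 7 without control replicate 1, 2 and 3, when 14.7%, 12.1% and 14.5% of all items were called, beside 29.3%. For Cas/ErbB2 the count stayed between 18 and 25 when any array was left out, beside 31.4% to 51.3% of all items. For Cas/ErbB2, ErbB2 and Cas cells in turn, the median of all items was -0.00, 0.02 and 0.00. It was 0.28, 0.22 and 0.20 under median scaling over probes detected on all arrays, with 22, 18 and 12 members called, and -1.62, -1.46 and -1.67 under scaling over all probes, with all 37 called lower in each. Of all items 56.2%, 48.1% and 45.2% were called under the first scaling and 82.6%, 82% and 84.1% under the second.

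**Figure D3:**
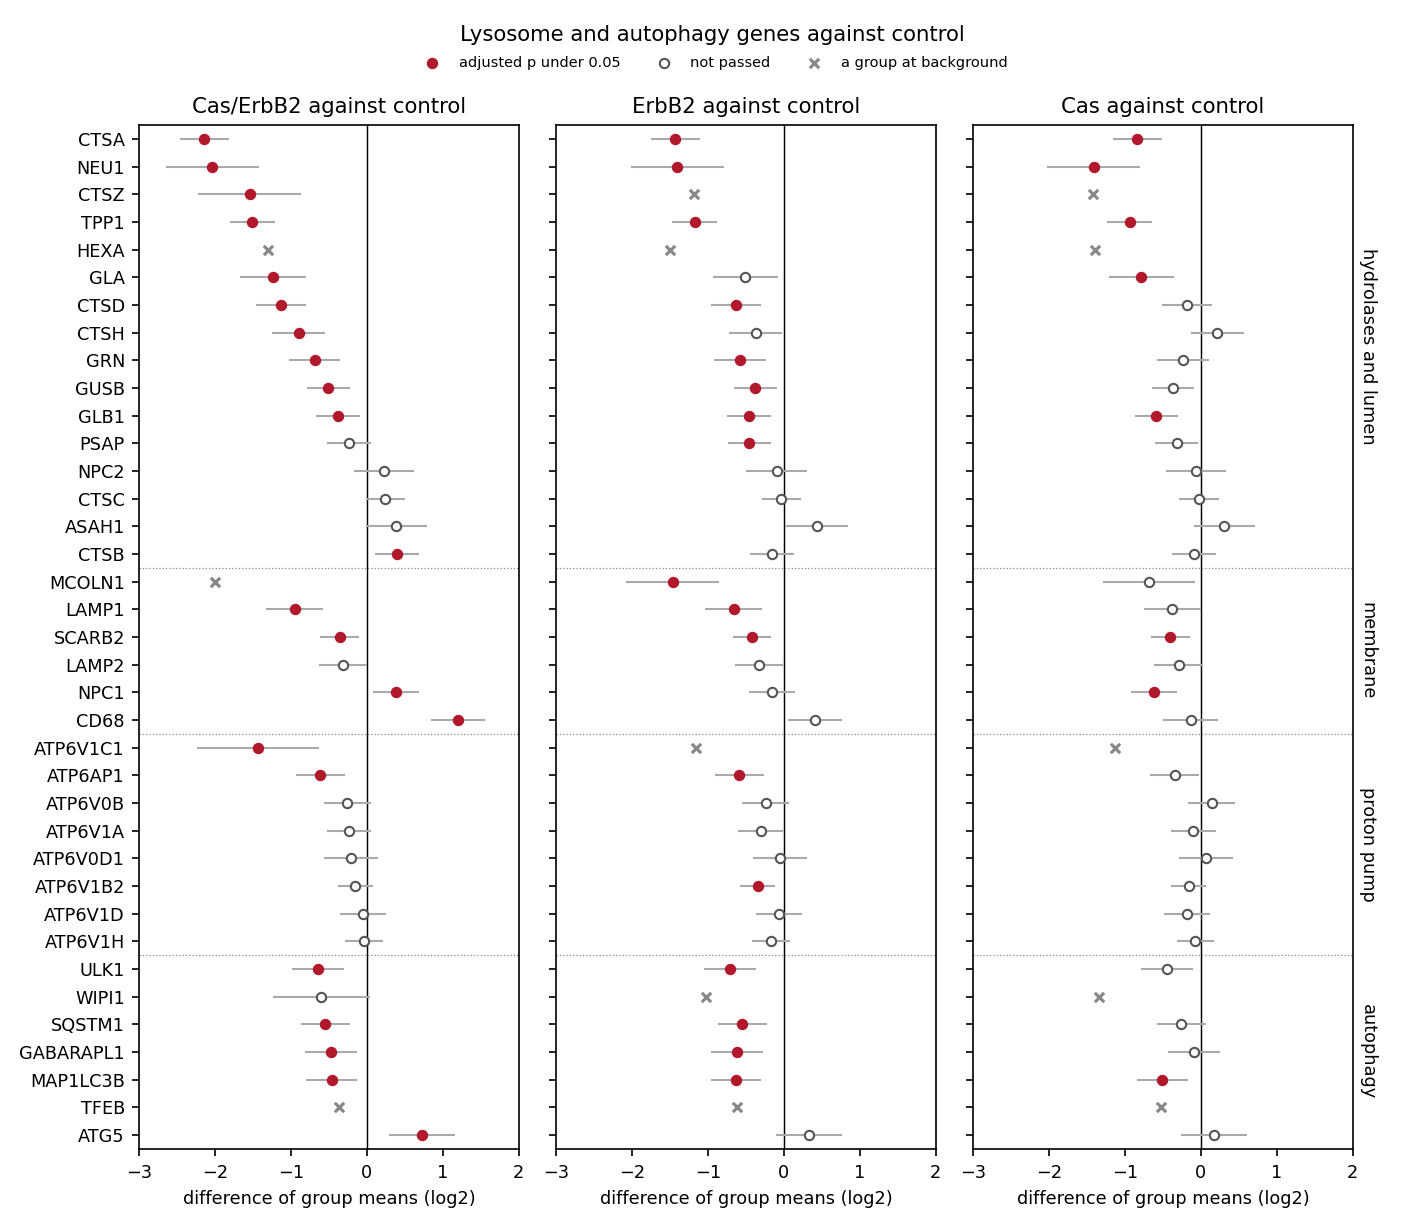
Difference of each group from control (log2, horizontal axes, with 95% confidence intervals of the limma fit) for the 37 measured genes in blocks by role, with filled points for adjusted p under 0.05 and grey crosses, with no interval, for genes at background on every array of a group, whose position is not a measured fold. Most points lie left of 0 in the 3 panels, while CD68 at 1.20, ATG5 at 0.72, CTSB at 0.40 and NPC1 at 0.39 lie right of 0 in Cas/ErbB2 cells, positions that turn below 0 under median scaling over all probes.

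Among the lumen proteins, 11 of 16 were lower and 1 higher in Cas/ErbB2, 10 lower in ErbB2 and 7 lower in Cas cells than in control, and of the 12 detected on all arrays 7, 6 and 3 were lower. Of all items 24.5%, 16.8% and 16.0% were lower (21.0% higher in Cas/ErbB2), and of items detected on all arrays 19.0%, 10.9% and 7.36%. The counts out of 16 include HEXA and CTSZ, which were kept through the control arrays. The sialidase NEU1, which trims sialic acids and is held by CTSA, was detected on 1 of 3 Cas/ErbB2, 2 of 3 ErbB2, 3 of 3 Cas and 3 of 3 control arrays. NEU1 stood at 7.29, 7.35 and 8.14 in Cas/ErbB2, 8.10, 8.79 and 7.78 in ErbB2, 8.00, 8.44 and 8.22 in Cas and 9.96, 9.56 and 9.38 in control cells. The control arrays were above all others, and the other 3 groups overlapped. NEU1 differed from control by -2.04 ± 0.28 in Cas/ErbB2, -1.41 ± 0.28 in ErbB2 and -1.41 ± 0.28 in Cas cells (log2, adjusted p = 1.19e-04, 0.00272 and 0.00286). The Cas/ErbB2 and ErbB2 means include arrays without detection, so their sizes are not well measured folds. GLA, the galactosidase that is missing in Fabry disease, was lowest on Cas/ErbB2 replicates 1 and 2. Values of GLA were 9.07, 9.05 and 9.76 in Cas/ErbB2 cells, 9.77, 9.99 and 10.34 in ErbB2 cells, 9.79, 9.74 and 9.73 in Cas cells and 10.61, 10.37 and 10.63 in control cells. Control arrays were above the other 9, and Cas/ErbB2 replicate 3 fell in the range of the Cas arrays. GLA was lower in Cas/ErbB2 (-1.24 ± 0.20, adjusted p = 3.68e-04) and Cas cells (-0.79 ± 0.20, 0.0112), and in ErbB2 cells -0.51 ± 0.20 did not pass (0.0705). The Cas call of GLA was lost without control replicate 1 or 3 (adjusted p up to 0.0522).

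GLB1, the lysosomal beta-galactosidase, moved less. GLB1 measured 11.47, 11.27 and 11.32 in Cas/ErbB2, 11.26, 11.16 and 11.38 in ErbB2, 10.92, 11.21 and 11.31 in Cas and 11.79, 11.68 and 11.73 in control cells. Control arrays were above the other 9, among which the groups overlapped. It differed from control by -0.38 ± 0.13 in Cas/ErbB2, -0.46 ± 0.13 in ErbB2 and -0.59 ± 0.13 in Cas cells (0.0341, 0.0202 and 0.00639), and its other detected probe gave -0.39, -0.52 and -0.61. The GLB1 call was lost in Cas/ErbB2 cells without Cas/ErbB2 replicate 2 or 3 or any 1 control array and in 2 other settings (adjusted p up to 0.101) and in ErbB2 cells without ErbB2 replicate 1 or 2 or any 1 control array (adjusted p up to 0.0759). GRN encodes progranulin, which is cleaved to granulins in the lysosome. On the arrays of Cas/ErbB2 cells GRN was 12.03, 11.90 and 11.73, against 12.18, 11.75 and 12.07 in ErbB2, 12.28, 12.59 and 12.15 in Cas and 12.54, 12.69 and 12.50 in control cells. Cas/ErbB2 and ErbB2 arrays overlapped and lay below the control arrays, which the Cas arrays overlapped through replicate 2. GRN was lower in Cas/ErbB2 (-0.69 ± 0.16, adjusted p = 0.00378) and ErbB2 cells (-0.58 ± 0.16, 0.0152) and -0.24 ± 0.16 in Cas cells did not pass (0.274). For GRN the ErbB2 call was lost without ErbB2 replicate 2 or control replicate 2 (adjusted p up to 0.0766).

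GUSB, the lysosomal beta-glucuronidase, lay lower than control on each of the 9 other arrays. Signal of GUSB was 10.03, 9.78 and 9.73 in Cas/ErbB2, 10.01, 9.86 and 10.07 in ErbB2, 10.15, 9.92 and 9.89 in Cas and 10.43, 10.30 and 10.35 in control cells. The Cas/ErbB2, ErbB2 and Cas arrays overlapped each other. The differences were -0.51 ± 0.13 in Cas/ErbB2 (adjusted p = 0.00751) and -0.38 ± 0.13 in ErbB2 cells (0.0446), while -0.37 ± 0.13 in Cas cells did not pass (0.0502). The ErbB2 call of GUSB was lost without any 1 ErbB2 array, Cas replicate 2 or 3 or any 1 control array and in 3 other settings (adjusted p up to 0.142). PSAP, the precursor of the saposins that present lipids to hydrolases, was called in ErbB2 cells alone. PSAP stood at 13.81, 13.81 and 13.64 in Cas/ErbB2, 13.64, 13.39 and 13.58 in ErbB2, 13.73, 13.74 and 13.55 in Cas and 13.96, 14.17 and 13.84 in control cells. All 9 other arrays were below the control arrays. The difference was -0.45 ± 0.13 in ErbB2 cells (adjusted p = 0.0203), against -0.24 ± 0.13 in Cas/ErbB2 and -0.32 ± 0.13 in Cas cells, which did not pass (0.158 and 0.0872), and the ErbB2 difference from these groups did not pass either. The PSAP call was lost without ErbB2 replicate 2 or control replicate 1 or 2 and in 1 other setting (adjusted p up to 0.143).

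CTSZ, a carboxypeptidase, and HEXA, the alpha subunit of beta-hexosaminidase A, were dim outside control. Values of CTSZ were 6.68, 6.76 and 8.06 in Cas/ErbB2 cells, 7.67, 7.14 and 7.77 in ErbB2 cells, 7.29, 7.56 and 7.03 in Cas cells and 8.79, 8.75 and 8.61 in control cells. Cas/ErbB2 replicate 3 was the only array outside control with CTSZ detected, and the signal in the other groups gave bounds of at least 1.84-fold lower in ErbB2 and at least 1.83-fold lower in Cas cells (adjusted p = 0.0126 and 0.00513). The ErbB2 call was lost without ErbB2 replicate 2 or control replicate 1 or 2 (adjusted p up to 0.0562). The CTSZ difference in Cas/ErbB2 cells was -1.55 ± 0.31 (0.00177), with 1 of 3 arrays detected, so its size is not a well measured fold. HEXA measured 6.65, 6.52 and 6.97 in Cas/ErbB2, 6.40, 6.46 and 6.67 in ErbB2, 6.71, 6.56 and 6.58 in Cas and 8.16, 8.02 and 7.87 in control cells. Control arrays were above all others for HEXA, which was at least 1.08-fold lower in Cas/ErbB2, at least 1.13-fold lower in ErbB2 and at least 1.12-fold lower in Cas cells (2.22e-05, 1.18e-05 and 2.22e-05). HEXA passed the filter through the control arrays alone, so that its direction was fixed by the filter. CTSZ met the filter only with the control arrays counted. Its lower values in Cas/ErbB2, ErbB2 and Cas cells were therefore also selected by the filter and are not read as a result. CTSC, ASAH1 and NPC2 passed in no comparison. ASAH1, the acid ceramidase, was 0.39 ± 0.19 in Cas/ErbB2, 0.43 ± 0.19 in ErbB2 and 0.31 ± 0.19 in Cas cells against control, and NPC2, which hands cholesterol to NPC1, was 0.23 ± 0.18, -0.10 ± 0.18 and -0.06 ± 0.18 in the same order.

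The probes of CTSC, a dipeptidyl peptidase that activates serine proteases, did not give the same result. The brightest probe, ILMN_2242463, and ILMN_1696347 differed from control by 0.24 and 0.22 in Cas/ErbB2 cells and did not pass (adjusted p = 0.119 and 0.21 in the fit of single probes). ILMN_1792885 and ILMN_1689086 were higher in Cas/ErbB2 than in control by 1.25 and 1.12 (5.00e-04 and 1.05e-04) and higher than in Cas by 0.96 and 0.60 (0.011 and 0.0264). The same pair was higher than control in ErbB2 cells by 0.62 and 0.86 (0.0396 and 0.00122). All 4 were detected on all 12 arrays, and which transcripts each reads is not given in the files. Of the 37 genes 13 had more than 1 kept probe.

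**Figure D4:**
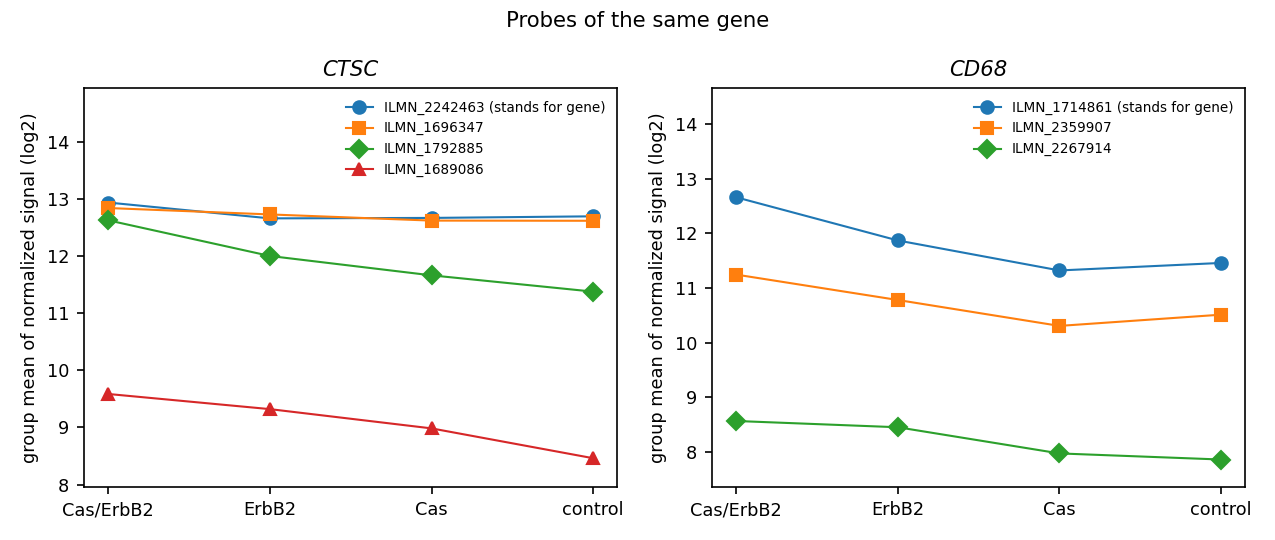
Group means of log2 normalized signal (vertical axes, not starting at 0) for each kept probe of CTSC and CD68, with 1 line per probe and the 4 groups on the horizontal axis. ILMN_1792885 and ILMN_1689086 of CTSC lie higher in Cas/ErbB2 than in control by 1.25 and 1.12 while the 2 other CTSC probes differ by 0.24 and 0.22, and the 3 CD68 probes are higher by 1.20, 0.73 and 0.71.

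Of the 6 measured membrane proteins, 3 were lower and 2 higher than control in Cas/ErbB2, 3 lower in ErbB2 and 2 lower in Cas cells, and of the 5 detected on all arrays 2 were lower in each group. The shares of all items lower were 24.5%, 16.8% and 16.0% (21.0% higher in Cas/ErbB2), and of items detected on all arrays 19.0%, 10.9% and 7.36%. LAMP1, a major protein of the lysosome wall whose promoter stretch holds the 6 copies of CACGTG shown above, was lowest in Cas/ErbB2 cells. On the arrays of Cas/ErbB2 cells LAMP1 was 12.31, 12.31 and 12.07, against 12.71, 12.34 and 12.50 in ErbB2, 12.88, 13.04 and 12.49 in Cas and 12.98, 13.40 and 13.15 in control cells. Cas/ErbB2 arrays were below all others, ErbB2 arrays were below control arrays, and Cas arrays overlapped both ErbB2 and control. LAMP1 was lower in Cas/ErbB2 (-0.95 ± 0.17, adjusted p = 9.16e-04) and ErbB2 cells (-0.66 ± 0.17, 0.0122), while -0.38 ± 0.17 in Cas cells and -0.57 ± 0.17 in Cas/ErbB2 against Cas did not pass (0.121 and 0.054). The ErbB2 call of LAMP1 was lost without ErbB2 replicate 2 or control replicate 2 (adjusted p up to 0.0736). SCARB2, the LIMP-2 receptor that carries glucocerebrosidase to lysosomes, had close values in the Cas/ErbB2, ErbB2 and Cas groups. Signal of SCARB2 was 12.81, 12.81 and 12.83 in Cas/ErbB2, 12.73, 12.64 and 12.89 in ErbB2, 12.67, 12.86 and 12.79 in Cas and 13.09, 13.26 and 13.18 in control cells. All 9 arrays were below control, at -0.36 ± 0.12 in Cas/ErbB2, -0.42 ± 0.12 in ErbB2 and -0.40 ± 0.12 in Cas cells (0.0246, 0.0165 and 0.0222). Its call was lost in Cas/ErbB2 cells without Cas/ErbB2 replicate 1 or 2 or control replicate 2 or 3 and in 2 other settings (adjusted p up to 0.148), in ErbB2 cells without ErbB2 replicate 2 or control replicate 2 or 3 and in 1 other setting (adjusted p up to 0.0945) and in Cas cells without Cas replicate 1 or 3 or control replicate 2 or 3 and in 1 other setting (adjusted p up to 0.115). LAMP2, the receptor of chaperone-mediated autophagy, was -0.32 ± 0.15 in Cas/ErbB2, -0.33 ± 0.15 in ErbB2 and -0.29 ± 0.15 in Cas cells and passed in none. Among its 6 kept probes ILMN_1673282 was lower in Cas/ErbB2 and ErbB2 cells at -0.44 and -0.46 (adjusted p = 0.00967 and 0.0115). MCOLN1 was also lower in ErbB2 cells (-1.47 ± 0.28, 0.00202, 1 of 3 arrays detected), and -0.69 ± 0.28 in Cas cells did not pass (0.0841).

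Of the 8 measured genes of the proton pump 2 were lower in Cas/ErbB2, 3 in ErbB2 and 1 in Cas cells than in control. These counts include ATP6V1C1, which was kept through the control arrays. Of all items 24.5%, 16.8% and 16.0% were lower. Of the 7 detected on all arrays 1, 2 and 0 were lower, beside 19.0%, 10.9% and 7.36% of such items, and over the 7 detected on all arrays the median differences were -0.21, -0.24 and -0.10. ATP6AP1, an accessory protein of pump assembly, was lower in Cas/ErbB2 and ErbB2 cells. ATP6AP1 stood at 11.63, 11.58 and 11.27 in Cas/ErbB2, 11.71, 11.35 and 11.49 in ErbB2, 11.79, 11.87 and 11.63 in Cas and 12.18, 12.20 and 11.94 in control cells. All 9 arrays were below the control arrays, with differences of -0.61 ± 0.15 in Cas/ErbB2 (adjusted p = 0.00545), -0.59 ± 0.15 in ErbB2 (0.0104) and -0.34 ± 0.15 in Cas cells (0.1, not passed). The ErbB2 call of ATP6AP1 was lost without control replicate 2 (adjusted p up to 0.0594). ATP6V1B2, a subunit of the catalytic head, differed from control in ErbB2 cells (-0.35 ± 0.11, 0.0267). Values of ATP6V1B2 were 12.38, 12.42 and 12.44 in Cas/ErbB2 cells, 12.21, 12.29 and 12.16 in ErbB2 cells, 12.36, 12.42 and 12.42 in Cas cells and 12.52, 12.63 and 12.54 in control cells. The ErbB2 arrays were below all others, and the call was lost without ErbB2 replicate 1 or 3 or any 1 control array and in 1 other setting (adjusted p up to 0.17).

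ATP6V1C1, which links the head to the stalk, differed among the Cas/ErbB2 arrays. ATP6V1C1 measured 6.57, 6.74 and 8.42 in Cas/ErbB2, 7.26, 7.68 and 7.64 in ErbB2, 7.50, 7.63 and 7.53 in Cas and 8.56, 8.95 and 8.54 in control cells. It was detected on the control arrays and on Cas/ErbB2 replicate 3, which lay above every ErbB2 and Cas array and below every control array. Without the control arrays it would not have met the filter. Its lower values in Cas/ErbB2, ErbB2 and Cas cells were therefore selected by the filter and are not read as a result. ATP6V1C1 was at least 1.80-fold lower in ErbB2 and at least 1.79-fold lower in Cas cells (adjusted p = 0.033 and 0.038). It was -1.44 ± 0.37 in Cas/ErbB2 (0.00777, 1 of 3 arrays detected), which is not a well measured fold. Its call was lost in ErbB2 cells without any 1 ErbB2 array or any 1 control array and in 3 other settings (adjusted p up to 0.133) and in Cas cells without any 1 Cas array or any 1 control array and in 3 other settings (adjusted p up to 0.152). The membrane subunits ATP6V0B and ATP6V0D1 and the head subunits ATP6V1A, ATP6V1D and ATP6V1H passed in no comparison by their brightest probes. Their differences from control lay between -0.31 (ATP6V1A, ErbB2 cells) and 0.14 (ATP6V0B, Cas cells). Another ATP6V0B probe was higher than control in Cas cells by 0.57 (adjusted p = 0.0348 in the fit of single probes). Another ATP6V1H probe, detected on 7 arrays, was higher in Cas/ErbB2 cells by 0.60 (0.0484).

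Of the 7 autophagy genes, 5 were lower and ATG5 higher than control in Cas/ErbB2, 6 were lower in ErbB2 and 3 in Cas cells. TFEB, at background outside control, is in each count of lower genes. WIPI1, at background on every ErbB2 and Cas array, is in the counts of the ErbB2 and Cas groups. Beside these counts stand 24.5%, 16.8% and 16.0% of all items lower, and 21.0% higher in Cas/ErbB2. Of the 5 detected on all arrays 4, 4 and 1 were lower, beside 19.0%, 10.9% and 7.36% of items so detected. ATG5, part of the enzyme complex that lipidates LC3, opposed the rest. On the arrays of Cas/ErbB2 cells ATG5 was 9.55, 9.29 and 9.99, against 9.04, 9.37 and 9.24 in ErbB2, 8.85, 8.90 and 9.43 in Cas and 8.86, 9.02 and 8.78 in control cells. Every Cas/ErbB2 and ErbB2 array was above the control arrays, which the Cas arrays overlapped. ATG5 was higher in Cas/ErbB2 (0.72 ± 0.20, adjusted p = 0.0115), while 0.33 ± 0.20 in ErbB2 and 0.17 ± 0.20 in Cas cells did not pass (0.235 and 0.563), and under median scaling over all probes the Cas/ErbB2 value turned to -1.20, which is 0.41 above the median of all items. SQSTM1 encodes p62, the receptor that brings ubiquitin-tagged cargo into autophagosomes. Signal of SQSTM1 was 13.36, 13.56 and 13.19 in Cas/ErbB2, 13.50, 13.38 and 13.21 in ErbB2, 13.77, 13.78 and 13.42 in Cas and 14.00, 13.92 and 13.82 in control cells. Control arrays were above the other 9. It was lower in Cas/ErbB2 (-0.55 ± 0.15, 0.0099) and ErbB2 cells (-0.55 ± 0.15, 0.0143), and -0.26 ± 0.15 in Cas cells did not pass (0.204). The ErbB2 call of SQSTM1 was lost without ErbB2 replicate 3 or control replicate 1 or 2 and in 1 other setting (adjusted p up to 0.0723).

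The lipid-linked proteins MAP1LC3B and GABARAPL1 mark the autophagosome membrane. MAP1LC3B stood at 10.45, 10.68 and 10.83 in Cas/ErbB2, 10.28, 10.55 and 10.64 in ErbB2, 10.50, 10.48 and 10.85 in Cas and 11.07, 11.16 and 11.13 in control cells. All control values of MAP1LC3B were above the other 9, and it was lower, at -0.47 ± 0.15 in Cas/ErbB2, -0.63 ± 0.15 in ErbB2 and -0.51 ± 0.15 in Cas cells (adjusted p = 0.0253, 0.00827 and 0.0257). The call was lost in Cas/ErbB2 cells without Cas/ErbB2 replicate 1 or 2 or any 1 control array (adjusted p up to 0.0981) and in Cas cells without Cas replicate 1 or 2 or any 1 control array (adjusted p up to 0.0977). Values of GABARAPL1 were 9.56, 9.49 and 8.96 in Cas/ErbB2 cells, 9.20, 9.11 and 9.25 in ErbB2 cells, 9.79, 9.74 and 9.60 in Cas cells and 9.87, 9.88 and 9.68 in control cells. Cas arrays overlapped control arrays, and the ErbB2 and Cas/ErbB2 arrays lay below both. GABARAPL1 was lower in Cas/ErbB2 (-0.47 ± 0.16, 0.0279) and ErbB2 cells (-0.62 ± 0.16, 0.0109), and -0.10 ± 0.16 in Cas cells did not pass (0.684). Its call was lost in Cas/ErbB2 cells without Cas/ErbB2 replicate 3 or control replicate 1 or 2 and in 1 other setting (adjusted p up to 0.0927) and in ErbB2 cells without control replicate 2 (adjusted p up to 0.0572). ULK1 is the kinase that starts autophagy. ULK1 measured 11.09, 10.86 and 10.80 in Cas/ErbB2, 11.15, 10.78 and 10.63 in ErbB2, 11.00, 11.27 and 11.10 in Cas and 11.49, 11.73 and 11.47 in control cells. Control arrays were above all others, and ULK1 was lower in Cas/ErbB2 (-0.65 ± 0.16, 0.0057) and ErbB2 cells (-0.71 ± 0.16, 0.00521), and -0.44 ± 0.16 in Cas cells did not pass (0.0527). Another ULK1 probe was lower in all 3 groups, with -0.63 in Cas/ErbB2, -0.72 in ErbB2 and -0.65 in Cas cells.

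WIPI1, which binds the lipid PI3P on forming autophagosomes, was detected on the control arrays and on Cas/ErbB2 replicate 3 alone. On the arrays of Cas/ErbB2 cells WIPI1 was 7.15, 7.43 and 8.68, against 7.34, 7.32 and 7.30 in ErbB2, 7.01, 7.06 and 6.93 in Cas and 8.40, 8.45 and 8.21 in control cells. That replicate was the highest of the 12, while the other 8 arrays without detection lay below control. WIPI1 was at least 1.43-fold lower in ErbB2 and at least 1.42-fold lower in Cas cells (adjusted p = 0.0188 and 0.00477), and -0.60 ± 0.29 in Cas/ErbB2 did not pass (0.111). The ErbB2 call of WIPI1 was lost without control replicate 1 or 2 (adjusted p up to 0.0785). WIPI1 met the filter only with the control arrays counted, so its lower values in ErbB2 and Cas cells are not read as a result. TFEB, the regulator of many of these genes, was detected on the control arrays alone and close to background there. Signal of TFEB was 7.35, 7.52 and 7.39 in Cas/ErbB2, 7.09, 7.08 and 7.33 in ErbB2, 7.28, 7.42 and 7.11 in Cas and 7.82, 7.76 and 7.79 in control cells. TFEB passed the filter through the control arrays alone, so that lower values elsewhere were fixed by the filter and its calls are not read as a result. Its bound against each group was under 1-fold and no fold is given, and its direction turned under median scaling over probes detected on all arrays. TFE3 was measured, detected on 9 arrays, and passed in no comparison, with differences from control of -0.22 ± 0.28 in Cas/ErbB2, -0.25 ± 0.28 in ErbB2 and -0.63 ± 0.28 in Cas cells. MITF had no probe that passed the filter.

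Whether ErbB2 went with the same difference in groups with the Cas label as in groups without that label was asked with the interaction term (Cas/ErbB2 minus Cas, less ErbB2 minus control). It was called for 8 of 37 members, 7 above 0 and 1 below, against 14.2% of all items (8.95% above and 5.21% below). HEXA, TFEB and WIPI1, which were at background on every ErbB2 and Cas array, are among the 8 and are not read as differences. It was called for 5 of the 29 detected on all arrays, both with all arrays and without Cas/ErbB2 replicate 3, against 8.67% of such items (2.94% above and 5.73% below). Without that array 16.6% of all items were called. NPC1 stood at 1.17 ± 0.20 (adjusted p = 0.00183), with an ErbB2 difference of 1.01 with the Cas label and -0.16 without that label. CD68 stood at 0.93 ± 0.23 (0.019), with 1.34 and 0.41, and CTSB at 0.65 ± 0.19 (0.0355), with 0.50 and -0.16. CTSH was the member below 0 at -0.74 ± 0.23 (0.0477), with -1.11 and -0.37, and turned to 0.89 under median scaling over all probes (-0.53 relative to the median of all items there) and to 0.11 when its probes were averaged. The CTSH call was lost on leaving out any of 11 of the 12 arrays and in 2 other settings (adjusted p up to 0.768). Calls were lost for CTSB in 12 of 22 settings and for GLB1 in 8 of 22, for CD68 without control replicate 1 or 2 and in 1 other setting (adjusted p up to 0.178), and for NPC1 in none of 22. The term uses the control arrays, and 2, 1 and 3 members were called without control replicate 1, 2 and 3, and 5 each without ErbB2 replicate 2 or Cas replicate 1. Of all items 5.53%, 2.51% and 3.78% were called without control replicate 1, 2 and 3, and 11.5% and 11.1% without the 2 other arrays.

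A wider list of 158 lysosome, autophagy and mTORC1 genes, 135 of them measured, holds the other genes of the pathway. In Cas/ErbB2 against Cas cells 7 rose and 9 fell, which is 11.9% of the list beside 10.6% of all items. Of the 82 detected on all arrays 6 rose and 8 fell (17.1%, beside 14.2% of such items). LAPTM5, a lysosome membrane protein of blood cells, was 2.28 ± 0.32 (adjusted p = 6.29e-04), with 10.36, 10.30 and 9.56 on Cas/ErbB2 arrays and 7.52, 8.47 and 7.38 on Cas arrays, of which 1 was detected. ATG16L1, which partners ATG5, was 1.05 ± 0.14 (4.34e-04) and VMP1, a membrane protein needed to form autophagosomes, 0.73 ± 0.15 (0.007). On the lower side SESN1, a sestrin that restrains mTORC1 when amino acids are low, was -1.55 ± 0.19 (2.25e-04), CLN3, a lysosome membrane protein, -1.14 ± 0.22 (0.00539), the pump subunit ATP6V0E2 -1.12 ± 0.16 (8.24e-04), the mannosidase MAN2B1 -1.11 ± 0.19 (0.00205) and the cathepsin CTSF -0.79 ± 0.19 (0.0214). Against control the list had 20 higher and 56 lower in Cas/ErbB2, 9 and 48 in ErbB2 and 9 and 38 in Cas cells (56.3%, 42.2% and 34.8% called, beside 45.5%, 30.6% and 29.3% of all items). Of the 82 it was 15 and 26, 7 and 24, and 7 and 13 (50%, 37.8% and 24.4%, beside 40.6%, 26.2% and 19.7%). CD164, a sialomucin of late endosomes and lysosomes, was higher in each (1.43, 1.10 and 1.31). Against ErbB2 cells 1 rose (ATG16L1, 0.66 ± 0.14) and 2 fell (SESN1 at -0.98 ± 0.19 and CTSV at -0.71 ± 0.17), which is 2.22% of the list beside 2.75% of all items.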

How the data were processed

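Total RNA (trizol, biotin labelled, per the labels' protocols) of 12 samples was read on Illumina bead arrays. The deposited files hold non-normalized intensity and a detection p-value per probe and array, and, per the file headers, a quantile normalized table used as an alternative. Which software the authors used is not given in the sources. The labels name a Ref-8v2 array, while the table holds 47224 probes.

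The intensity was background corrected (normexp by control probes, offset 16, with 770 negative controls per array inferred from the detection p-values), then quantile normalized and log2 transformed with limma 3.58.1 in R 4.3.3. Probes with a detection p-value under 0.05 on at least 3 arrays were kept (19777). Of all probes 30111 carried 1 gene symbol, 8 several and 17105 none. Each named gene was read from its brightest kept probe, and every unnamed probe was an item of its own. A 4-group linear model with eBayes moderation gave 7 comparisons, with Benjamini-Hochberg adjustment over all 16171 items in each, and was tested on simulated data. An exact permutation test of 3 arrays against 3 cannot go below 0.1. The number of arrays limits the precision.

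Every member may be named. Those called in any comparison are given by array, the others by range and count, and from the wider list up to 2 genes of largest change per direction, role and comparison, with TFE3 and MITF always. Members and lists were chosen with earlier results of these data known. Alternatives covered normalization, background, the detection filter, the probe rule, moderation, the arrays in the fit, a replicate block and each array left out. Median scaling over all probes and the counts over members detected everywhere without Cas/ErbB2 replicate 3 were added after seeing the data. Promoters came from RefSeq (GRCh38.p14). Figures used Python 3.11.15 and matplotlib 3.10.9.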

Additional observations from a re-analysis of the deposited data

Results flagged for a closer look

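The interaction term was called for 5 members that were detected on all 12 arrays, by limma with Benjamini-Hochberg adjusted p. For these the ErbB2 difference with the Cas label (Cas/ErbB2 against Cas) differed from that without the label (ErbB2 against control). NPC1 stood at 1.17 (1.01 with the Cas label and -0.16 without that label, adjusted p = 0.00183) and CD68 at 0.93 (1.34 and 0.41, 0.019). GLB1 stood at 0.67 (0.20 and -0.46, 0.0327), CTSB at 0.65 (0.50 and -0.16, 0.0355) and CTSH at -0.74 (-1.11 and -0.37, 0.0477). The CTSH call was lost on leaving out any of 11 of the 12 arrays, and calls were lost in 12 of 22 settings for CTSB, 8 for GLB1, 3 for CD68 and 0 for NPC1. Calls of WIPI1, HEXA and TFEB are not read as differences, since these genes were at background on every ErbB2 and Cas array. The part of the control hybridization was not tested.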

How the results depend on the processing

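Leaving out 1 array at a time gave 18 to 25 members called in Cas/ErbB2, 6 to 23 in ErbB2 and 7 to 15 in Cas against control, 0 to 8 in Cas/ErbB2 against ErbB2, 6 to 11 in Cas/ErbB2 against Cas, 0 to 2 in ErbB2 against Cas (2 without Cas/ErbB2 replicate 3) and 1 to 8 for the interaction. The share of all items called moved as well, over 31.4% to 51.3%, 14% to 37.8%, 12.1% to 35.7%, 1.11% to 11%, 7.17% to 15.8%, 0.783% to 2.61% and 2.51% to 16.6%. Without Cas/ErbB2 replicate 3, counts over members detected on all arrays were 17, 15, 8, 4, 7, 1 and 5 in this order, with 18, 14, 6, 2, 6, 0 and 5 on all arrays. Of all items 51.3%, 37.8%, 35.7%, 11%, 15.8%, 2.61% and 16.6% were called without that array. With all arrays it was 45.5%, 30.6%, 29.3%, 2.75%, 10.6%, 1.56% and 14.2%. Median scaling over all probes called 37 (0 higher and 37 lower, beside 4 and 21), 37, 37, 0, 3, 0 and 36 (36 above 0). Of all items it called 82.6%, 82%, 84.1%, 0.247%, 2.46%, 0.421% and 74.2%. Detection on all 12 arrays as the filter gave 14 in ErbB2 and 8 in Cas against control, 5 in Cas/ErbB2 against ErbB2 and 5 for the interaction, and the probe mean gave 1 and 5 in those last comparisons. Cas/ErbB2 against ErbB2 had 0 with median scaling over detected probes, 5 with trend and robust moderation, 1 over the 9 arrays without control and 0 with its own arrays alone, and ErbB2 against Cas had 2 with trend and robust moderation. Against control in Cas/ErbB2 cells, all-probe scaling reversed CTSB (-1.363), CD68 (-0.605), NPC1 (-1.516) and ATG5 (-1.201). CTSH in the interaction reversed to 0.888 there and to 0.108 with the probe mean. TFEB, at background outside control, reversed under median scaling over detected probes, at 0.798 in Cas/ErbB2, 0.343 in ErbB2 and 0.638 in Cas against control and -0.183 in the interaction. The causes were not tested. Same-numbered arrays of different groups correlated in their deviations from group means at -0.088 to 0.194 (median 0.078, 18 pairs), so the numbers were not taken to pair them. With a replicate block the counts were 25, 24, 14, 4, 8, 0 and 9. Dim signal limits CTSZ, HEXA, ATP6V1C1, WIPI1 and TFEB. It also limits CTSA in Cas/ErbB2 cells and NEU1 and MCOLN1 in Cas/ErbB2 and ErbB2 cells.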
